A study of Mus musculus with 2 samples.

Results

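The genes described here encode the core of glucose metabolism. They are 42 genes for glucose and lactate transporters, glycolytic enzymes, the pyruvate dehydrogenase complex, the TCA cycle and the pentose phosphate pathway, chosen by name from the 23233 genes of the deposited table. All 42 were listed, and all 42 reached 1 RPKM in at least 1 library. RPKM is the number of reads of a gene scaled by transcript length and by library size. Per the labels, the mice were C57BL/6, 7 days old and wild type, and their ventral skin was dissociated overnight. Cells that bound a polyclonal antibody against the zinc importer ZIP10 were sorted from those that did not. Neither group carried a transgene or received a treatment that the labels name. Each population gave 1 library of polyadenylated RNA, so there is no replicate and no test, and each difference below describes these libraries. How many animals were used, and whether they were pooled, the labels do not say. Slc39a10, the gene of ZIP10 itself, stood at 49.4 RPKM in the sorted positive cells and at 11.1 RPKM in the negative ones.

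Both libraries hold RNA of several cell types, although the sample titles speak of hair follicle cells. All 10 keratinocyte markers were above 0 in both libraries, and their levels summed to 2769 RPKM in ZIP10-positive cells, against 917 RPKM. For the 10 erythroid markers listed, the sum was 16379 RPKM, against 283758 RPKM in ZIP10-negative cells, where Klf1 was at 0. Macrophage and monocyte markers summed to 1480 and 205 RPKM, and 6 of 14 were listed at 0 in ZIP10-negative cells, Lyz2 and the 3 C1q genes among them. In bulk RNA, fewer cells of a type and less RNA per cell cannot be told apart. Depth was estimated at about 2.79e+06 reads in the ZIP10-positive and 2.72e+06 reads in the ZIP10-negative library.

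Glycolysis divides glucose into pyruvate in the cytosol. Its preparatory steps, from hexokinase to triosephosphate isomerase, spend ATP, and its payoff steps, from glyceraldehyde-3-phosphate dehydrogenase to pyruvate kinase, return ATP and NADH. Lactate dehydrogenase regenerates NAD by turning pyruvate into lactate, while the pyruvate dehydrogenase complex sends pyruvate into the TCA cycle of mitochondria. The pentose phosphate pathway branches off early and supplies NADPH and ribose. Skin keratinocytes are known for high glycolysis and lactate release, and mature red cells, which lack mitochondria, depend on glycolysis and the pentose phosphate pathway.

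As deposited, 38 of the 42 genes had higher values in ZIP10-positive cells, and Hk1, Hk2, Aldoc and Ogdh had lower ones. On the log2(RPKM + 1) scale, 30 of 42 were at least 2-fold higher, against 44.1% of all 12249 genes compared, and 0 were at least 2-fold lower, against 3.55%. Their median log2 ratio was 1.38, against 0.87 for all genes compared. The median gene was itself shifted: over the 9620 genes that reached 1 RPKM in each library, its ZIP10-positive to ZIP10-negative ratio was 1.97. All further ratios are therefore given relative to that median gene, where a value of 1 means that a gene was shifted as much as the median gene.

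Relative to the median gene, 35 of the 42 genes lay within 2-fold on the log2(RPKM + 1) scale, on which counts and medians are given; folds of single genes are plain ratios and lie further out for low genes such as Hk1. The 6 genes at least 2-fold higher were Slc2a3, Pgk1, Eno3, Ldhb, Idh1 and Fh1, against 14.7% of all genes compared, a share close to that of the 42. Aldoc was the 1 gene at least 2-fold lower, against 11.4% of all genes. The median of the 42 log2 ratios was 0.45, against 0.09 for all genes compared, with 32 genes above and 10 below the median gene. Scaled instead to the genes outside the 50 most abundant, which places equality at a ratio of 2.51, the median was 0.11. Then 3 genes (Slc2a3, Eno3 and Ldhb) were at least 2-fold higher, against 9.74% of all genes, and 4 (Hk1, Hk2, Aldoc and Ogdh) lower, against 17.5%.

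**Figure D1:**
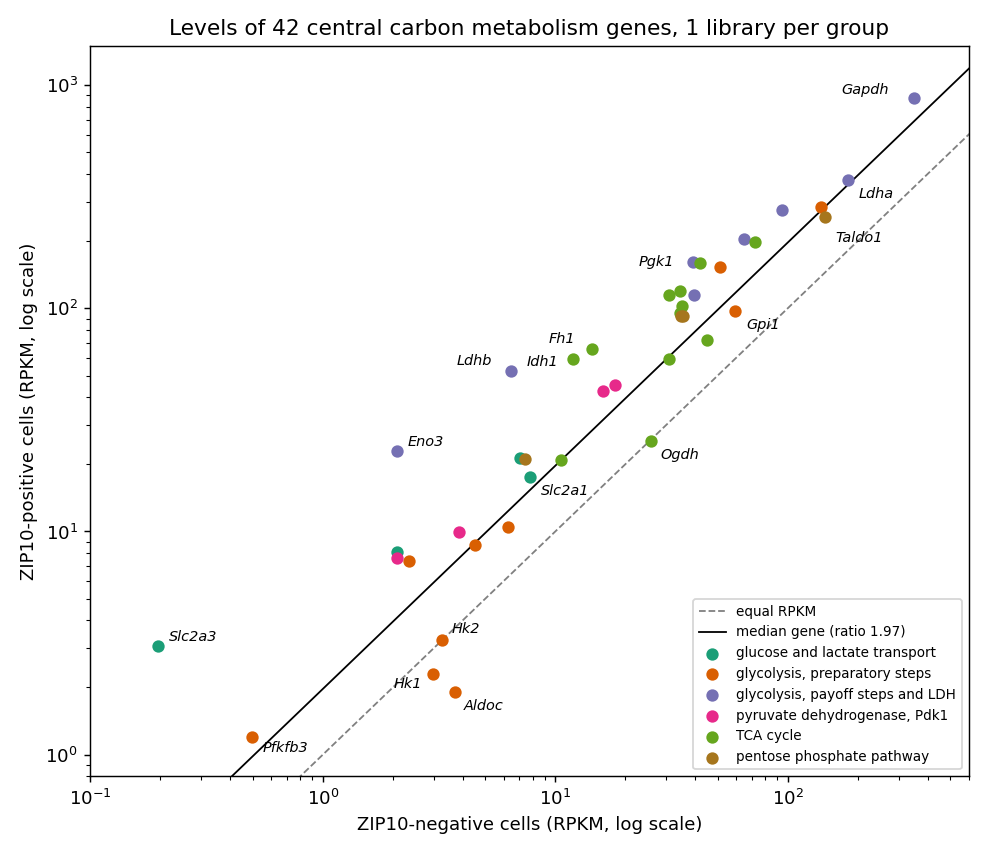
Level of each of the 42 genes in ZIP10-negative cells (x axis) and ZIP10-positive cells (y axis), in RPKM on log scales, with 1 library per group and colours for the pathway. Most points follow the line of the median gene, at a ratio of 1.97, while Slc2a3, Eno3 and Ldhb lie well above it and Hk1, Hk2, Aldoc and Ogdh lie below equality.

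Level and transcript length moved with the ratio across all genes, and their part in the results for the 42 genes was not tested. The median log2 ratio of genes with transcripts under 1500 bases was 0.66 (1970 genes), that of 1500 to 3000 bases 0.21 (4140 genes) and that over 3000 bases -0.14 (5535 genes). For the 42 genes the same length classes gave 0.64 (6 genes), 0.45 (22 genes) and 0.37 (14 genes). Measured against the 300 genes most similar in level, the median of the 42 genes was 0.14, and against the 300 most similar in level and length it was 0.24. Under the 5 zero points tried, 22 genes stayed above and 10 below, and the other 10 (Slc2a1, Pfkfb3, Aldoa, Gapdh, Ldha, Pdhb, Dlat, Idh3a, Mdh2 and Tkt) changed sign.

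By role, the preparatory steps of glycolysis lay lowest. The median log2 ratio, with the median gene as 0, was 0.68 for the 4 transporters, -0.12 for the 10 genes of the preparatory steps and 0.62 for the 8 genes of the payoff steps with lactate dehydrogenase. It was 0.38 for the 4 genes of pyruvate dehydrogenase and its kinase, 0.52 for the 12 genes of the TCA cycle group and 0.42 for the 4 pentose phosphate genes. The preparatory steps were the lowest group under each of the 5 zero points, between -0.48 and -0.12. The transporters lay between 0.32 and 0.87 under these zero points. Their median was 0.44 with a pseudocount of 5 and 0.38 with a filter at 10 RPKM, below the payoff steps (0.60 and 0.62) and the TCA cycle group (0.49 and 0.52).

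**Figure D2:**
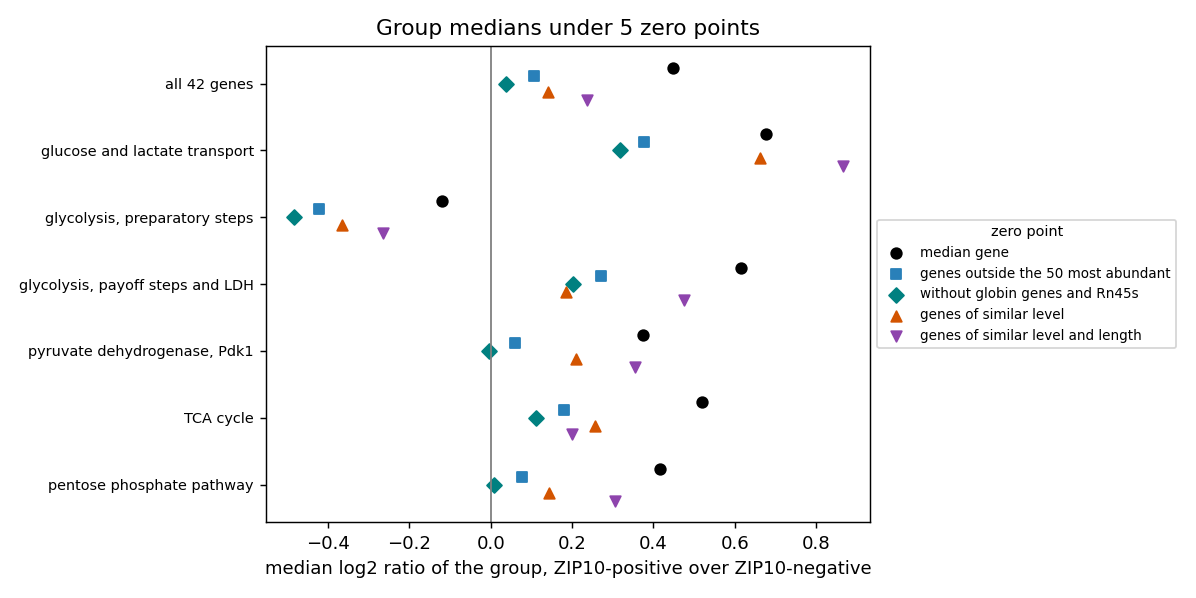
Median log2 ratio of ZIP10-positive over ZIP10-negative cells (x axis) for all 42 genes and for each group (y axis), with 1 symbol for each of 5 zero points. The preparatory steps of glycolysis lie below 0 and the transporters above 0 under each zero point, and the pyruvate dehydrogenase and pentose phosphate groups come within 0.01 of 0 when globin genes and Rn45s are left out.

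Glucose enters cells through facilitative transporters. Slc2a1, which encodes the widely expressed transporter GLUT1, stood at 17.6 RPKM in ZIP10-positive cells, against 7.77 RPKM in ZIP10-negative cells, 1.15 times the median gene's ratio with a 95% counting interval of 0.848 to 1.55. Slc2a3, which encodes the high-affinity transporter GLUT3 of neurons and leukocytes, stood at 3.06 against 0.196 RPKM. That is 7.92 times the median gene's ratio, but the lower value rests on about 2 reads and the interval runs from 2.02 to 68.2. The share of Slc2a3 in the sum of both transporters was 14.8% in ZIP10-positive and 2.46% in ZIP10-negative cells. Leukocyte markers were higher in the same library: neutrophil markers summed to 1673 against 15.8 RPKM, and of 9 such markers S100a9, Retnlg, Ngp, Camp and Ltf were listed at 0 in ZIP10-negative cells alone and Elane and Mpo at 0 in both libraries. The macrophage sums are given above, and Lyz2 alone gave 772 RPKM of the ZIP10-positive sum. Of the 12 macrophage and monocyte markers at 1 RPKM or more in a library, 10 lay above the median gene. Laptm5 and Fcer1g lay below it, at 0.797 (0.699 to 0.908) and 0.864 (0.688 to 1.08) times its ratio. The part of these markers in the Slc2a3 value was not tested.

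The lactate transporters were both higher than the median gene. Slc16a1, which encodes the monocarboxylate transporter MCT1, stood at 8.08 against 2.09 RPKM, 1.96 times the median gene's ratio (interval 1.24 to 3.21). Slc16a3, which encodes MCT4, the lactate exporter of glycolytic cells, stood at 21.5 against 7.09 RPKM, 1.54 times (1.18 to 1.99). The Slc16a1 to Slc16a3 ratio was 0.377 and 0.295, a change of 1.27-fold whose interval of 0.763 to 2.13 includes no change.

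In the preparatory steps of glycolysis, Hk1 and Hk2 were the lowest genes after Aldoc, relative to the median gene. Hk1, the housekeeping hexokinase, stood at 2.30 RPKM in ZIP10-positive cells, against 2.98 RPKM in ZIP10-negative cells. Hk2, the insulin-responsive hexokinase, stood at 3.25 against 3.26 RPKM. Both trap glucose as glucose-6-phosphate, and both were nearly equal in the libraries while the median gene was not. Relative to the median gene they were at 0.392 (interval 0.224 to 0.672) and 0.506 (0.331 to 0.772), with about 26 to 48 reads per value. Their ratio to each other changed by 1.29-fold, with an interval of 0.671 to 2.47.

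Gpi1, which isomerises glucose-6-phosphate, stood at 96.9 against 59.6 RPKM, or 0.825 times the median gene's ratio (0.731 to 0.931). Phosphofructokinase, the committed step of glycolysis, has 3 subunit genes. Pfkl, the liver-type subunit, stood at 10.5 against 6.29 RPKM, and Pfkm, the muscle-type subunit, at 8.66 against 4.50 RPKM, with intervals that hold the median gene. Pfkp, the platelet-type subunit, stood at 7.41 against 2.34 RPKM, 1.61 times the median gene's ratio (1.01 to 2.62). The Pfkp to Pfkl ratio was accordingly 1.89-fold larger in ZIP10-positive cells (1.09 to 3.28), while that of Pfkm to Pfkl, at 1.15-fold, had an interval of 0.679 to 1.94. Pfkfb3, which makes the phosphofructokinase activator fructose-2,6-bisphosphate, was near the detection floor at 1.19 against 0.496 RPKM, about 15 and 6 reads.

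Aldolase and triosephosphate isomerase complete these steps. Aldoa, the main aldolase, stood at 286 against 139 RPKM, 1.04 times the median gene's ratio (0.934 to 1.16). Aldoc, the brain-type aldolase, stood at 1.92 against 3.69 RPKM, 0.264 times (0.129 to 0.529), on about 14 and 26 reads. The share of Aldoc in both aldolases was 0.667% in ZIP10-positive and 2.58% in ZIP10-negative cells. Tpi1 stood at 154 against 51.1 RPKM, 1.53 times the median gene's ratio (1.30 to 1.80).

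The payoff steps held the most abundant of the 42 genes, and all 8 genes of this group lay above the median gene. Gapdh, which oxidises glyceraldehyde-3-phosphate, stood at 879 RPKM in ZIP10-positive cells, against 348 RPKM in ZIP10-negative cells, 1.28 times the median gene's ratio (1.20 to 1.37). Pgk1, which makes the first ATP of the payoff, stood at 161 against 39.0 RPKM, 2.09 times (1.77 to 2.49). Pgam1 stood at 114 against 39.6 RPKM and Pkm2, the row for the pyruvate kinase gene Pkm, at 275 against 94.8 RPKM, both 1.47 times. Reads of near-identical pseudogenes can be shared, so these values are uncertain to that extent. In the reference annotation Gapdh had 75 pseudogenes with at least 95% identity over 200 bases, Pgk1 and Ldha 4 each and Eno1 2. In all, 10 of the 42 genes had at least 1.

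Enolase, which makes phosphoenolpyruvate, differed between isozymes. Eno1, the ubiquitous form, stood at 205 against 64.8 RPKM, 1.61 times the median gene's ratio (1.42 to 1.82). Eno3, the muscle form, stood at 23.0 against 2.08 RPKM, 5.59 times (2.61 to 12.9), the latter value on about 8 reads. The share of Eno3 in both enolases was 10.1% in ZIP10-positive and 3.12% in ZIP10-negative cells, and the Eno3 to Eno1 ratio was 3.48-fold larger (1.67 to 7.25). Skeletal muscle markers summed to 83.1 and 42.1 RPKM, a ratio near that of the median gene, and Acta1 alone gave 53.9 and 23.0 RPKM. Of the 7 that reached 1 RPKM in a library, 5 lay above the median gene and 2 below. Tnnc2 stood at 5.89 against 0.755 RPKM, on about 8 and 1 reads, and Mylpf at 9.78 against 12.7 RPKM. Of all 12 muscle markers, the myosin heavy chains Myh1, Myh3 and Myh8 and the myoglobin gene Mb were listed at 0 in both libraries. The part of muscle cells in the Eno3 value was not tested.

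Lactate dehydrogenase showed the same kind of contrast. Ldha, which favours lactate production, stood at 376 RPKM in ZIP10-positive cells, against 182 RPKM in ZIP10-negative cells, 1.05 times the median gene's ratio (0.962 to 1.14). Ldhb, the heart-type subunit that favours lactate oxidation, stood at 52.6 against 6.44 RPKM, 4.14 times (2.62 to 7.19). Ldha was the more abundant in both populations, but the share of Ldhb in both genes was 12.3% in ZIP10-positive and 3.42% in ZIP10-negative cells. The Ldhb to Ldha ratio was 3.96-fold larger in ZIP10-positive cells (2.44 to 6.41), a value that no scaling of the libraries can change.

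The promoter windows of these isozyme genes are shown because their partners were shifted so differently. Each is a window of 300 bases around an annotated start, from RefSeq on GRCm38.p6, which is not the mm9 build of the deposited values. Capitals mark ACGTG, the core of the site bound by the hypoxia-inducible factor HIF, on either strand; it overlaps the E-box CACGTG, which MYC binds. The Ldha window (chr7:46845554-46845853, plus strand) held it at 3 places, of which 2 were CACGTG, while its other window held none. The windows of Ldhb (chr6:142507908-142508207, minus strand) and Eno3 (chr11:70656926-70657225, plus strand) held none. The Eno1 window (chr4:150236458-150236757, plus strand), the one with the lowest start of 3 listed, held none, nor did its other windows.
Ldha: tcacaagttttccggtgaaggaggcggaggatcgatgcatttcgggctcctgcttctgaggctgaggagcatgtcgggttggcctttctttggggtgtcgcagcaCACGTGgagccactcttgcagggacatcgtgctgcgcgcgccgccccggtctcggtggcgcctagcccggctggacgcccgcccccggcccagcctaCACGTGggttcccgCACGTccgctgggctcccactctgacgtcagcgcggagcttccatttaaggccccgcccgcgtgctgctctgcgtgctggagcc
Ldhb: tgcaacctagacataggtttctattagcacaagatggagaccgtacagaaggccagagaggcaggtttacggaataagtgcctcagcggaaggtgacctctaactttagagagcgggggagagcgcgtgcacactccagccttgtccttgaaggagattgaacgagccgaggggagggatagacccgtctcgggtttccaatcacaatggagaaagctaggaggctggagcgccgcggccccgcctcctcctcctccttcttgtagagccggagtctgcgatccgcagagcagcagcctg
Eno1: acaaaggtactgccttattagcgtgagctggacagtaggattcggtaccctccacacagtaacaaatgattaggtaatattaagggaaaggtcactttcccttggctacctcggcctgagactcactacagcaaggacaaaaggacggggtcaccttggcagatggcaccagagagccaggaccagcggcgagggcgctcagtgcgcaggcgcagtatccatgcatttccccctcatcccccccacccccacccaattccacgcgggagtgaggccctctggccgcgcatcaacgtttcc
Eno3: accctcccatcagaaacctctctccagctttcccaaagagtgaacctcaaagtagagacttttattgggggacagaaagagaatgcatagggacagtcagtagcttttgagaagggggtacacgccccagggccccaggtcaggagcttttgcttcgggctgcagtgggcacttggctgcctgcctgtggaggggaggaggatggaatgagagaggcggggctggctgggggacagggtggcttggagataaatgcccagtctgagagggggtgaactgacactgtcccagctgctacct

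Across the 42 genes, 39 had a window in this table, and 19 of the 39 held ACGTG in at least 1 window. Of 27025 genes in the table, coding and noncoding, 21.8% did, and of all 32851 windows 19.6%. By role, ACGTG stood in windows of 3 of 3 transporter genes and 11 of 18 glycolysis genes including lactate dehydrogenase. It stood in windows of 3 of 10 genes of the TCA cycle group, 1 of 4 pyruvate dehydrogenase genes and 1 of 4 pentose phosphate genes. Of the 5 genes at least 2-fold above the median gene that had a window, 1 (Pgk1) held it, against 18 of the other 34. These are letter matches in short windows, with no measure of binding.

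**Figure D3:**
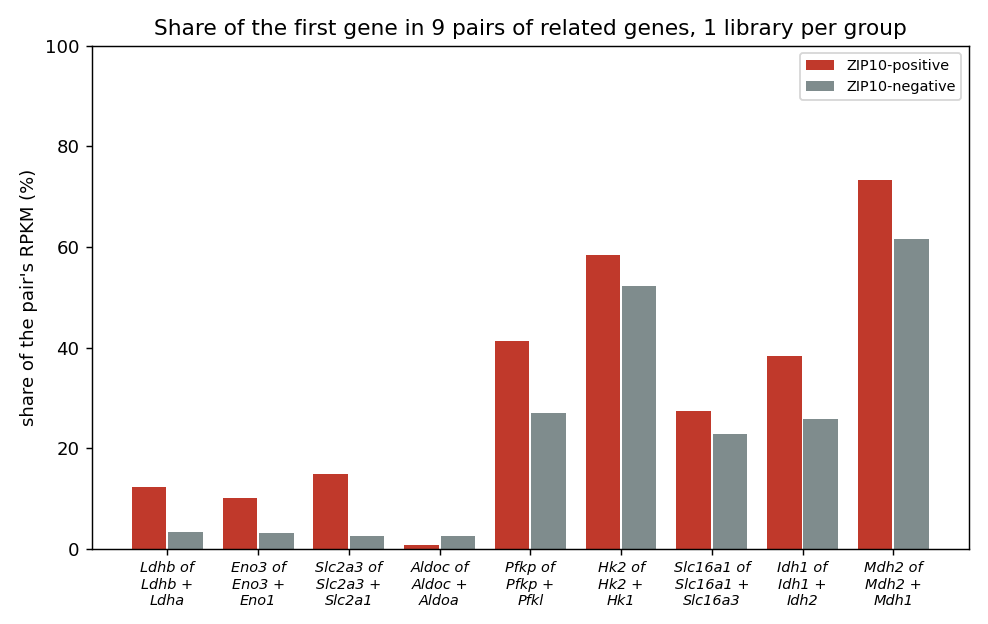
Share of the first gene in the summed RPKM of 9 pairs of related genes (y axis, percent), in ZIP10-positive (red) and ZIP10-negative (grey) cells, 1 library each. The shares of Ldhb, Eno3 and Slc2a3 are larger in ZIP10-positive cells, at 12.3%, 10.1% and 14.8% against 3.42%, 3.12% and 2.46%, and that of Aldoc is smaller.

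The 3 subunit genes of the pyruvate dehydrogenase complex among the 42 genes differed in their shift by less than counting error. Pdha1 and Pdhb, which encode both subunits of its decarboxylase, stood at 42.4 and 45.1 RPKM in ZIP10-positive cells, against 16.0 and 18.1 RPKM. Dlat, the acetyltransferase core, stood at 9.94 against 3.84 RPKM. Relative to the median gene they were at 1.35, 1.26 and 1.31, and the ratios of Pdhb and Dlat to Pdha1 changed by 0.939-fold (0.657 to 1.34) and 0.974-fold (0.639 to 1.49). Other subunit genes of the complex lay outside the 42. Dld was at 1.58 times the median gene's ratio (1.22 to 2.07). Pdhx, at 3.25 against 2.54 RPKM, was at 0.650 times (0.323 to 1.33), on about 21 and 16 reads. Pdk1, a kinase that inhibits the complex, stood at 7.57 against 2.09 RPKM, 1.84 times the median gene's ratio (1.21 to 2.93).

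Genes of the TCA cycle group, which includes the cytosolic Idh1 and Mdh1, ranged from 0.501 to 2.52 times the median gene's ratio. Cs, citrate synthase, stood at 102 RPKM in ZIP10-positive cells, against 35.1 RPKM in ZIP10-negative cells, 1.48 times (1.28 to 1.70). Idh1, the cytosolic NADP-dependent isocitrate dehydrogenase, stood at 59.3 against 11.9 RPKM, 2.52 times (1.95 to 3.34), the highest of the group. Its mitochondrial counterpart Idh2 stood at 95.5 against 34.4 RPKM, 1.41 times (1.16 to 1.71), and the Idh1 to Idh2 ratio was 1.79-fold larger in ZIP10-positive cells (1.30 to 2.47). Idh3a, a subunit of the NAD-dependent enzyme of the cycle itself, stood at 20.9 against 10.5 RPKM, 1.01 times (0.738 to 1.38).

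Ogdh, the decarboxylase of the 2-oxoglutarate dehydrogenase complex, had the lowest ratio of the 12 genes, at 25.5 against 25.8 RPKM. That is 0.501 times the median gene's ratio (0.422 to 0.593), on about 279 and 276 reads. Its partner Dlst, the succinyltransferase core of the complex, was close to it at 24.8 against 22.3 RPKM, with an Ogdh to Dlst ratio that changed by 0.886-fold (0.675 to 1.16). Dld, the lipoamide dehydrogenase that this complex shares with pyruvate dehydrogenase, stood at 37.7 against 12.1 RPKM. The Ogdh to Dld ratio was 0.676 in ZIP10-positive and 2.13 in ZIP10-negative cells, a change of 0.317-fold (0.233 to 0.430).

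Succinate dehydrogenase, shared by the TCA cycle and the respiratory chain, divided between its flavoprotein and the other subunits. Sdha, the flavoprotein, stood at 59.4 against 30.8 RPKM, 0.979 times the median gene's ratio (0.832 to 1.15). Sdhb, the iron-sulfur subunit, stood at 114 against 30.9 RPKM. The membrane anchors Sdhc and Sdhd stood at 159.9 and 119.9 RPKM against 41.9 and 34.4 RPKM. These 3 were at 1.88, 1.94 and 1.77 times, and their ratios to Sdha were 1.92-fold (1.43 to 2.58), 1.98-fold (1.62 to 2.41) and 1.81-fold (1.37 to 2.38) larger in ZIP10-positive cells. Among themselves they differed by less than counting error, with Sdhc to Sdhb and Sdhd to Sdhb ratios that changed by 1.03-fold (0.783 to 1.36) and 0.942-fold (0.673 to 1.32). Transcripts of Sdhb and Sdhd have 1142 and 1231 bases, and those of Sdhc and Sdha 3171 and 2900. Against genes of similar level and length, the log2 ratios were 0.29 for Sdhb, 0.24 for Sdhd, 0.82 for Sdhc and -0.21 for Sdha. The part of length in these contrasts was not tested.

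Fumarase and malate dehydrogenase close the cycle. Fh1, fumarate hydratase, stood at 65.9 against 14.4 RPKM, 2.32 times the median gene's ratio (1.84 to 2.90). Mdh2, the mitochondrial malate dehydrogenase, stood at 198 against 72.1 RPKM, 1.39 times (1.20 to 1.62). Mdh1, the cytosolic form of the malate-aspartate shuttle, stood at 72.1 against 44.8 RPKM, 0.816 times (0.692 to 0.965). The Mdh2 to Mdh1 ratio was 1.70-fold larger in ZIP10-positive cells (1.37 to 2.12).

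**Figure D4:**
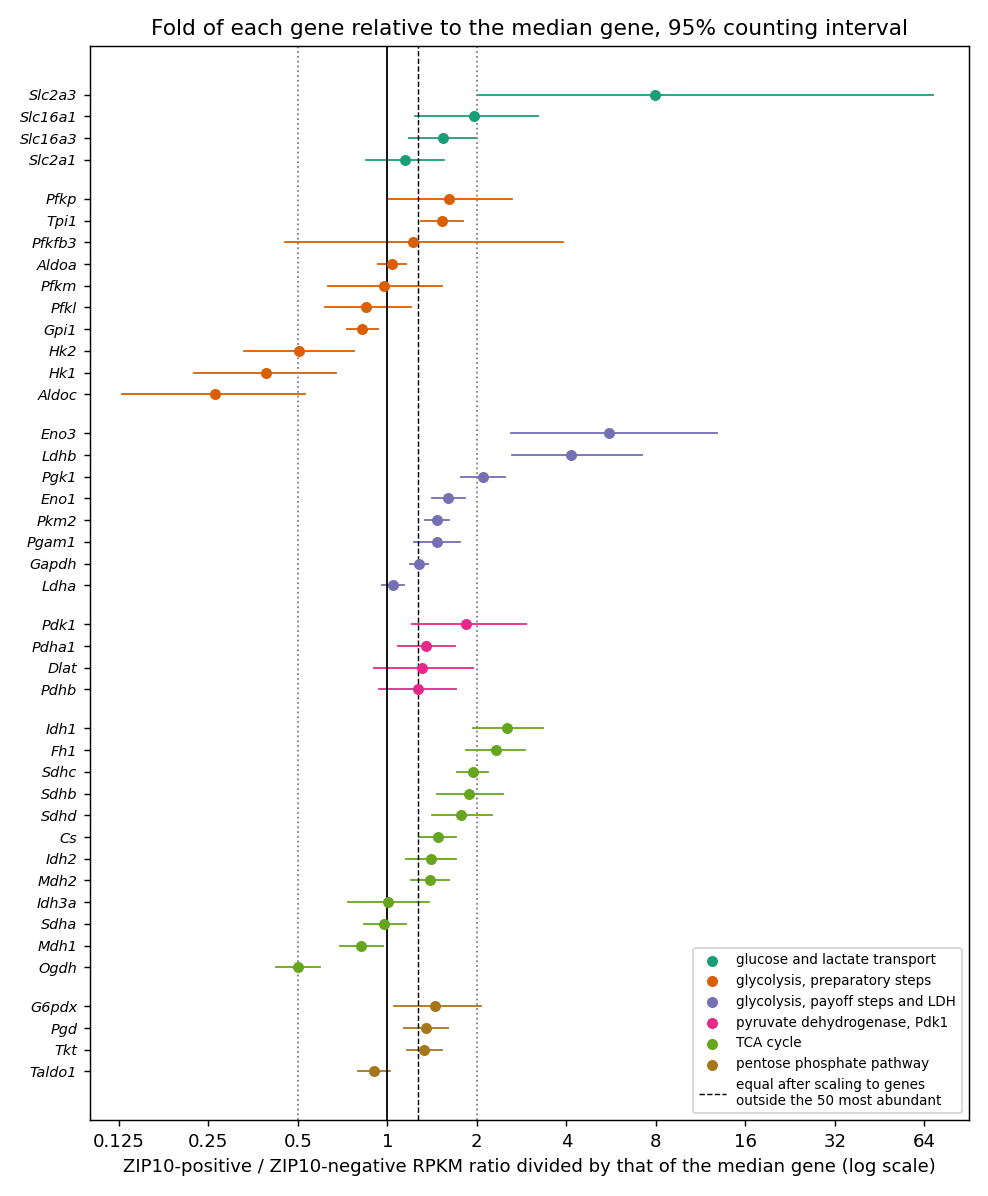
Ratio of ZIP10-positive to ZIP10-negative RPKM of each gene (y axis) divided by that of the median gene (x axis, log scale), with 95% counting intervals from estimated reads as lines. The intervals of 25 genes lie above the median gene (solid line at 1), those of 6 lie below it and those of 11 include it. The shares over all genes compared were not computed. Dotted lines mark 2-fold and the dashed line equality under scaling without the 50 most abundant genes.

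In the pentose phosphate pathway, 3 of 4 genes lay above the median gene and Taldo1 below it. G6pdx, glucose-6-phosphate dehydrogenase, the entry step that makes NADPH, stood at 21.1 RPKM in ZIP10-positive cells, against 7.40 RPKM in ZIP10-negative cells, 1.45 times the median gene's ratio (1.05 to 2.07). Pgd, the other NADPH-making step, stood at 92.1 against 34.6 RPKM, 1.35 times (1.14 to 1.60). Tkt, transketolase, stood at 92.8 against 35.3 RPKM, 1.33 times (1.16 to 1.53). Taldo1, transaldolase, was the most abundant of the 4 genes at 257 against 144 RPKM, and at 0.904 times (0.800 to 1.02) the least shifted, with an interval below those of the other 3 genes.

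Counting error alone, from estimated reads, left 25 of the 42 genes above the median gene, 6 below it and 11 with an interval that includes it. Against equality under the scaling without the 50 most abundant genes, 13 intervals lay above and 11 below. The share of all genes compared with such intervals was not computed, so these counts have no background to be read against. All 533 genes with a mean log2(RPKM + 1) of 6 to 8, a range that holds 11 of the 42, had a median log2 ratio of 0.50. These intervals hold no variation between animals or sorts.

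Of 83 other genes of the same pathways, 59 reached 1 RPKM in a library. Relative to the median gene 8 were at least 2-fold higher, against 14.7% of all genes compared, 3 were lower, against 11.4%, and 48 lay within 2-fold. Their median log2 ratio was 0.24, and -0.09 under the scaling without the 50 most abundant genes. Of those at 10 RPKM or more, Got1, the cytosolic aspartate aminotransferase of the malate-aspartate shuttle, stood at 13.0 against 1.39 RPKM, on about 67 and 7 reads. Slc16a7, the monocarboxylate transporter MCT2, stood at 15.9 against 2.33 RPKM. Pdk3, another pyruvate dehydrogenase kinase, stood at 15.4 against 2.46 RPKM. The kinases did not shift alike. Pdk2 stood at 18.3 against 18.6 RPKM, 0.500 times the median gene's ratio (0.377 to 0.663). Pdk4 stood at 1.22 against 1.09 RPKM, 0.571 times (0.210 to 1.43). Mpc2, listed as Brp44, is a subunit of the mitochondrial pyruvate carrier and stood at 122 against 22.1 RPKM, while its partner Mpc1, listed as Brp44l, stood at 96.6 against 37.2 RPKM.

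Bpgm had the lowest ratio of these 59 genes. It encodes the mutase that makes 2,3-bisphosphoglycerate, the regulator of oxygen release from haemoglobin in red cells. It stood at 22.5 RPKM in ZIP10-positive cells, against 561 RPKM in ZIP10-negative cells, with a log2 ratio of -5.53 relative to the median gene. In ZIP10-negative cells it exceeded Gapdh, the most abundant of the 42 genes, and its ratio to Pgam1 was 14.2, against 0.197 in ZIP10-positive cells. Erythroid markers moved with it, at the sums given above, and 9 of 10 lay at least 2-fold below the median gene. Their part in the Bpgm value, and in the values of the 42 genes, was not tested.

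Of 15 HIF pathway and mitochondrial regulators, 13 reached 1 RPKM. Relative to the median gene, 1 was at least 2-fold higher and 2 were lower, against the same 14.7% and 11.4% of all genes. Hif1a, the oxygen-regulated subunit of HIF, stood at 8.98 against 4.44 RPKM, a log2 ratio of 0.03 relative to the median gene. Myc stood at 4.26 against 1.17 RPKM, on about 25 and 7 reads. Esrra, a nuclear receptor that drives mitochondrial genes, stood at 10.2 against 2.17 RPKM, on about 58 and 12 reads. Of 14 hypoxia targets outside glucose metabolism, 12 were compared, and 2 were at least 2-fold higher and 3 lower, few genes to set against those shares. Higd1a, a mitochondrial protein, stood at 24.1 against 3.09 RPKM, and Bnip3l, which removes mitochondria from maturing red cells, at 54.1 against 147 RPKM.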

How the data were processed

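Per the labels, 10 ng of total RNA went into each library, read from one end over 50 bases. The authors deposited RPKM values, 1 per gene symbol and library. Cutadapt, TopHat, Cufflinks and the mm9 build are named, without versions, in the submitters' processing notes; annotation and strand settings are not given in the sources used. Ratios are log2((positive + 1)/(negative + 1)) with a pseudocount of 1, for 12249 genes that reached 1 RPKM in either library; this understates the change of low genes. Folds relative to the median gene carry no pseudocount. The shift of the median gene was divided between the libraries.

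Depth came from whole-number ratios of low values, after division by a fixed number that stands for the ratio of library depths. The best of the fixed numbers scanned was 0.975. With it, 64.9% of 1389 genes at or under 1 RPKM gave a whole-number ratio with numbers up to 20, at a tolerance of 0.0012%. Away from it, the best fixed number gave 29.7%. Of 125 genes with 1 transcript, 32.8% lay within 1.4% of the depth used. Reads per gene were estimated from it and the longest GENCODE vM21 transcript with a RefSeq match, less 199 bases. Intervals for single genes are exact binomial (Clopper-Pearson, 95%), and those for ratios of 2 genes are normal on the log scale; both cover counting error only.

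The members and gene lists were chosen with earlier results of these data known, and the 24 gene pairs (17 of them within the 42 genes) after values were seen. Named are all members, and other listed genes at 10 RPKM or more and 2-fold from the median gene, with Hif1a and Myc. Genes named beside them to complete a complex, pathway or gene family were chosen after their values were seen. These are Dlst, Dld, Mpc1, Pdhx, Pdk2 and Pdk4. Pseudogenes were matched with blastn. The code was tested on simulated reads. Tables were handled with pandas 2.3.3, intervals with scipy 1.17.1, on Python 3.11.15 with numpy 2.4.6.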

Additional observations from a re-analysis of the deposited data

How the results depend on the processing

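With 1 library per group no replicate could be left out. No paired analysis was possible because each group has 1 library. The count of genes at least 2-fold lower than the median gene, 1 as reported, was 2 with a pseudocount of 0.1, and 0 with a pseudocount of 5 or a filter at 10 RPKM, which leaves 32 genes. The count at least 2-fold higher, 6 as reported, was 4 with a pseudocount of 5, where Slc2a3 (0.44) and Pgk1 (0.9998) dropped below 2-fold, and 5 with the filter. The transporter median, 0.68 as reported, was 0.44 and 0.38 under these settings. Without a filter on low values none of the counts and medians changed, and all 42 genes had passed it.

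The zero point mattered more. Scaling to genes outside the 50 most abundant gave 3 genes higher and 4 lower, and medians of 0.11 for all 42 genes, 0.27 for the payoff steps, 0.18 for the TCA cycle group and 0.076 for the pentose phosphate genes. Leaving out globin genes and Rn45s also gave 3 higher and 4 lower, with medians of 0.038, 0.20, 0.11 and 0.0079 in the same order and -0.0039 for pyruvate dehydrogenase and its kinase. The other 2 zero points were chosen after seeing the data. Against genes of similar level, 3 were higher and 2 lower, with medians of 0.14 for all, 0.19 for the payoff steps, 0.26 for the TCA cycle group and 0.14 for the pentose phosphate genes. Against genes of similar level and length, the payoff steps had 0.48 and the TCA cycle group 0.20. No gene at least 2-fold from the median gene changed sign under an alternative that kept it (the filter at 10 RPKM drops Slc2a3 and Aldoc), and Slc2a3, Eno3 and Ldhb were at least 2-fold higher and Aldoc at least 2-fold lower under all 5 zero points; for the other changes the cause was not tested. Slc2a3, Eno3, Aldoc and Pfkfb3 rest on 2 to 14 estimated reads in their lower library, where depth limits precision.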
